A study of Homo sapiens with 4 samples.

Results

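The MYC network is a small set of transcription factor genes, and the 10 genes described here are MYC, its partner MAX, the MAX-binding antagonists MXD1, MXD3, MXD4, MXI1, MNT and MGA, and the parallel pair MLX and MLXIP. They were chosen by name, as the rows of the deposited gene tables that carry these symbols, out of 27940 symbols in all. All 10 had at least 1 row, and 9 had a mean level high enough to be tested among 11390 genes; MXD3 did not. The libraries came from the established human glioma line U87, infected with lentivirus, with 2 libraries in each of 2 groups. The group called shPTPRN3 carried a short hairpin RNA against PTPRN, which encodes a receptor-type tyrosine phosphatase family protein of dense-core vesicle membranes. The group called shNC carried the empty FUGW-H1 vector per the labels, while in the series' design text the control is H1-RFP (WT), so the exact control vector is uncertain. Both groups were grown in the same serum-containing medium, and 1 hairpin in 1 line was used. The series' design text calls the libraries of a group biological replicates, but no source used here says whether they came from separate cultures or infections, so each p-value below rests on the spread of these 4 libraries alone.

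Proteins of this network carry a basic region followed by a helix-loop-helix and a leucine zipper, and they bind DNA as dimers at E-boxes, whose core letters are CACGTG. MYC paired with MAX recruits coactivators and raises transcription of genes for ribosome production, nucleotide synthesis and cell-cycle entry. MXD proteins, MXI1, MNT and MGA compete for MAX and recruit corepressors. Some of them are known for roles in cells that leave the cycle or differentiate, while MNT is also found in cycling cells. MLX pairs with MLXIP, also called MondoA, a factor that responds to glucose-derived metabolites. In gliomas MYC is known as a driver of proliferation.

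The hairpin's target is shown because it defines the perturbed group. Capitals mark the bases that match PTPRN transcripts, which are all of them.
shPTPRN3 target: GGAAGTCTGTATTCAGGATGG
The longest run of the 21-base target found in any annotated MYC transcript was 6 bases, and 99.6% of tested genes with an annotated transcript held a run at least that long. For MXD1 and MLXIP the longest run was 9 bases, as long as or longer than in all other tested members, and 26.2% of genes had at least that. Runs in the other tested members were 7 or 8 bases.

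The promoter table of RefSeq (GRCh38.p14) held 14 windows for 9 of the 10 genes, each from 250 bases before to 50 bases after a transcript start. MYC had no window there, so its promoter was not searched. The E-box core CACGTG, which reads the same on both strands, was found in 1 window of each of 3 genes, MNT, MXD4 and MLX, against 7.26% of all 35116 windows. Counted by gene, 13.1% of tested genes with a promoter window held the core in at least 1 window. The MNT, MXD4 and MLX windows are shown because they carry the letters that the network's own proteins bind. They are given 5' to 3' on the gene's strand with the E-box in capitals.
MNT promoter, chr17:2401011-2401310, minus strand: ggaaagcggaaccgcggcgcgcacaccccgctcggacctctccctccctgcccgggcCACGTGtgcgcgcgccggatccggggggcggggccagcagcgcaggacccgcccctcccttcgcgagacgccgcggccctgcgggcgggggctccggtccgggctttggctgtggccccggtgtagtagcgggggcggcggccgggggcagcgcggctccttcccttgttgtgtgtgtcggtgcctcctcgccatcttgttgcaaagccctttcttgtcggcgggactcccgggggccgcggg
MXD4 promoter, chr4:2262060-2262359, minus strand: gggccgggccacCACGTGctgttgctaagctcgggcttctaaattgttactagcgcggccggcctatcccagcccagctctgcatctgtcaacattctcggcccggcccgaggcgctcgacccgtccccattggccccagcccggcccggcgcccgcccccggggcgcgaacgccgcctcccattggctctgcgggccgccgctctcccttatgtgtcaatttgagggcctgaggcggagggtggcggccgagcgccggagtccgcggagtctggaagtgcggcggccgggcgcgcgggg
MLX promoter, chr17:42566850-42567149, plus strand: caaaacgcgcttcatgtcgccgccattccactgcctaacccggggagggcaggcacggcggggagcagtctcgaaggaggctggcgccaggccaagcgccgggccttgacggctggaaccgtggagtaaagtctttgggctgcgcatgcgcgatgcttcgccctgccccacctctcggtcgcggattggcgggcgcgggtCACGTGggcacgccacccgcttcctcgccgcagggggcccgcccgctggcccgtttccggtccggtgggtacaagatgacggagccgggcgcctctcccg
The match began 193 bases before the transcript start in MNT, 238 bases before it in MXD4 and 50 bases before it in MLX. A match in these letters is a description and not a measured binding site. The 3 genes had log2 fold changes, shPTPRN3 against shNC, of 0.29, 0.05 and -0.01.

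Levels are given in FPKM, a fragment count per transcript length and library depth, put on a common scale by median ratios between libraries and called scaled FPKM. The interval widths of single-exon genes put the depth at about 13400000 to 30000000 fragments per library. PTPRN stood at 4.96 and 3.62 scaled FPKM in the shPTPRN3 libraries, against 27.6 and 19.8 in the shNC libraries, which is 18.1% of the control mean, with a log2 difference of -2.22 (limma, adjusted p = 0.0592). A gene is called where limma's adjusted p over all 11390 genes is under 0.05, and 48 genes were, which is 0.421% (0.079% higher and 0.342% lower in shPTPRN3). The mesenchymal markers VIM (1193 to 2098), CD44 (84.6 to 97.7) and CHI3L1 (298 to 664 scaled FPKM) were high in every library, while GFAP, the defining marker of astrocytes, was listed at 0 in all of them and the glial marker OLIG2 stayed at 0.872 or less. The leukocyte marker PTPRC was at 0.212 or less and the endothelial marker PECAM1 at 0.736 or less, while CD68, a lysosomal protein gene used as a macrophage marker, had 434 and 326 scaled FPKM in shPTPRN3 and 225 and 253 in shNC.

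Some markers differed between the groups. Of the 7 mesenchymal markers, SPARC, FN1, TNC and CD44 had both shPTPRN3 libraries above both shNC libraries, and VIM, CHI3L1 and TIMP1 overlapped. Of all tested genes, 21.5% were higher in that way. SPARC, a matrix glycoprotein gene, had 229 and 170 scaled FPKM in shPTPRN3 and 37.7 and 34.4 in shNC (log2 difference 2.42; limma, adjusted p = 0.0594). FN1, which encodes fibronectin, had 341 and 91.6 in shPTPRN3 and 43.2 and 66.8 in shNC (1.70; adjusted p = 0.320 by limma). The 7 markers summed to 3848 and 2381 scaled FPKM in shPTPRN3 and to 3391 and 2504 in shNC. NES, the neural progenitor filament nestin, had 1.3 and 0.972 in shPTPRN3 and 2.35 and 4.01 in shNC (-0.94; adjusted p = 0.289 by limma). The part of these markers in the values of the MYC network was not tested.

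MYC was lower in the shPTPRN3 libraries and 4 genes, the antagonists MXI1, MXD1 and MNT and the MLX partner MLXIP, were higher there, in the sense that the libraries of the groups did not overlap. The partners MAX and MLX, the antagonist MXD4 and MGA overlapped between groups. None of the 9 tested members was called by limma over all genes, in either direction, and 1, MYC, had an unadjusted p under 0.05, against 7.77% of all genes that were lower and 5.67% that were higher at that level. A p that misses the threshold with 2 libraries a group does not show that levels were equal. Groups without overlap were frequent in these data, with 21.5% of all tested genes higher and 23.1% lower in shPTPRN3. The median log2 fold change was 0.05 over the 9 members and -0.01 over all tested genes, and the median absolute change was 0.29 and 0.36.

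**Figure D1:**
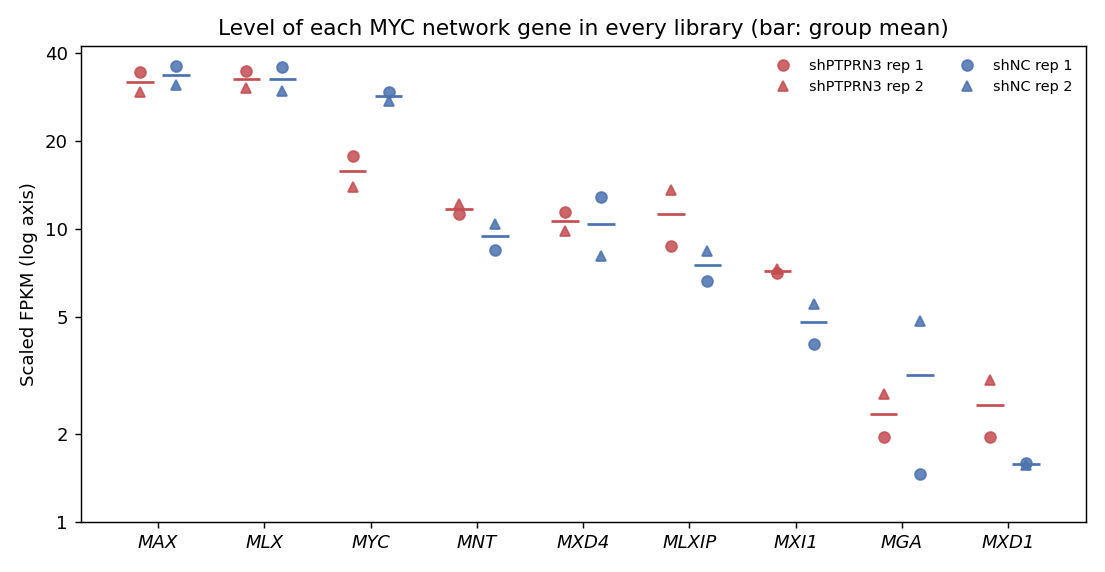
Scaled FPKM (log axis) of the 9 members above 0 in each library, shPTPRN3 in red and shNC in blue, circles for replicate 1 and triangles for replicate 2, with a bar at the group mean. Both shPTPRN3 values lie below both shNC values for MYC, and above them for MNT, MLXIP, MXI1 and MXD1.

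MYC, at chr8:127735434-127742951 on the plus strand (hg38), had 17.7 and 13.9 scaled FPKM in the shPTPRN3 libraries, against 29.4 and 27.4 in the shNC libraries. Its highest shPTPRN3 library was below its lowest shNC library. The group means were 15.8 ± 2.64 and 28.4 ± 1.42 (SD, n = 2 each), so that 55.6% of the control mean was left. On the log2 scale MYC differed by -0.82 (SE 0.32, 95% interval -1.58 to -0.06), and the adjusted p was 0.337 (limma over all genes; unadjusted p = 0.0388). This change stood at percentile 9.2 among the changes of all tested genes, counted from the most negative. Within the libraries numbered 1 the difference was -0.70 and within those numbered 2 it was -0.93 on the log2 scale. The direction held in each of 17 alternative fits, with values from -0.98 to -0.64. This adds little, as fits that change only the variance model keep the same difference. With groups that do not overlap, leaving out 1 library can also hardly turn the sign. The lowest adjusted p by limma was 0.0276, with the replicate number as a block that no label supports. Among the fits without that block it was 0.19. In a bulk library, a lower level per cell and fewer cells with a high level cannot be told apart.

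The deposited intervals, which describe 1 library each and not the spread between libraries, were narrow for MYC. They ran from 17.7 to 19.5 and from 12.1 to 14.2 FPKM in the shPTPRN3 libraries, against 29.1 to 32.1 and 25.0 to 28.4 FPKM in the shNC libraries, before scaling. The 2 shPTPRN3 intervals overlapped neither each other nor those of shNC. No other gene of the tables overlaps the MYC locus.

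**Figure D2:**
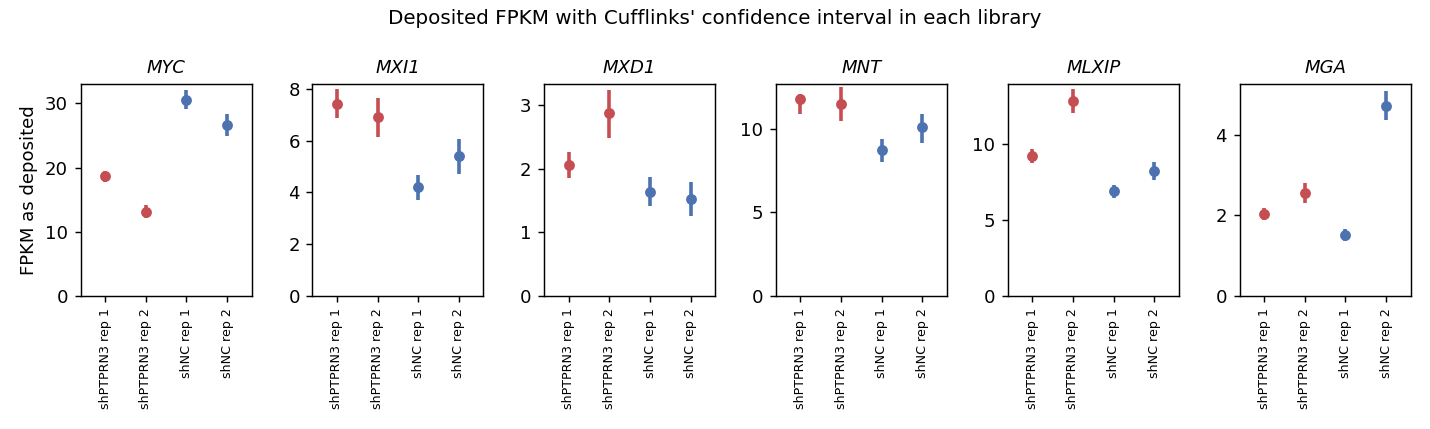
FPKM as deposited (points) with Cufflinks' confidence interval (lines) for 6 members in each library, shPTPRN3 in red and shNC in blue, each axis starting at 0. MYC lies between 13.1 and 18.6 FPKM in shPTPRN3 and between 26.7 and 30.5 FPKM in shNC, while MGA differs more between the shNC libraries (1.52 and 4.72 FPKM) than between the groups.

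Other genes that can take the place of MYC or sit beside it were low in all libraries. MYCN, the paralogue known from neural tumours, was at 0 in both shPTPRN3 libraries and at 0 and 0.0416 scaled FPKM in the shNC libraries. MYCL was at 0.138 and 0.0741 in shPTPRN3 and at 0.0991 and 0.150 in shNC. The noncoding neighbour PVT1 had 1.85 and 1.67 scaled FPKM in shPTPRN3 and 2.97 and 1.47 in shNC, with overlapping groups and a log2 difference of -0.18 (limma, adjusted p = 0.868), which was 0.16 without shNC replicate 1 and -0.53 without shNC replicate 2. Of the paralogue list, 0 of 3 genes reached the mean of 1 scaled FPKM needed for testing.

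MAX, the obligate partner of MYC and of most antagonists, was the highest member by mean level, at 34.2 and 29.4 scaled FPKM in shPTPRN3 against 35.9 and 31.1 in shNC. The groups overlapped, with the replicate 1 library the higher one in each. Its log2 fold change was -0.07, with a 95% interval of -0.85 to 0.70 (limma, adjusted p = 0.956). MAX overlaps FNTB, a gene on the other strand with 2.33 to 8.06 FPKM as deposited, and CHURC1-FNTB on that strand. CHURC1-FNTB had 3.88 and 7.21 FPKM in replicate 1 of shPTPRN3 and shNC, and 0 in replicate 2 of each. The strand setting of the counting is not given in the sources used here, and the part of these genes in the MAX values was not tested. In 2 libraries the deposited MAX value also lies outside its own interval, for example 36.0 FPKM with an upper bound of 34.9 in shPTPRN3 replicate 1.

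Relative to MAX, MYC was at 0.517 and 0.474 of the MAX level in the shPTPRN3 libraries, against 0.820 and 0.881 in the shNC libraries. An exact permutation test of 2 values against 2 can give no p below 0.333, two-sided, and the ratio is given as a description.

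MXI1, an antagonist that pairs with MAX and recruits SIN3 corepressors, had 7.06 and 7.32 scaled FPKM in shPTPRN3 and 4.04 and 5.54 in shNC. The shPTPRN3 libraries were close together and both above shNC. The mean was 7.19 ± 0.181 against 4.79 ± 1.06 (SD, n = 2 each), or 1.5-fold higher, with a log2 fold change of 0.51 and a 95% interval of -0.23 to 1.25 (limma, adjusted p = 0.508).

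MXD1, the founding antagonist of the MXD group, was low, with 1.95 and 3.04 scaled FPKM in shPTPRN3 and 1.58 and 1.56 in shNC. The shNC libraries were nearly equal and below both shPTPRN3 libraries, of which replicate 2 was the higher. Its log2 fold change of 0.43 (SE 0.31) had adjusted p = 0.596 by limma, and the added constant of 1 makes it smaller than the 1.59-fold difference of the means.

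MXD4, another antagonist of the same group, had 11.4 and 9.84 scaled FPKM in shPTPRN3 and 12.8 and 8.09 in shNC. Both shPTPRN3 values lay between the shNC values. The log2 fold change was 0.05, with a 95% interval of -0.77 to 0.86 (limma, adjusted p = 0.972). Its sign turned without shNC replicate 2 (-0.26) and without shPTPRN3 replicate 1 (-0.05).

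MXD3, the remaining antagonist of the group, was listed at 0 in all 4 libraries, with deposited upper bounds of 0.0811 and 0.195 FPKM in shPTPRN3 and 0.133 and 0.211 FPKM in shNC. The gene lies at chr5:177305499-177311898 on the minus strand and shares 1451 bases with PRELID1 on the plus strand. PRELID1, a mitochondrial lipid transfer gene, had 191 and 132 FPKM as deposited in shPTPRN3 and 287 and 142 FPKM in shNC. Its part in the MXD3 values was not tested, so no level is drawn for MXD3.

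MNT, the antagonist found in cycling as well as resting cells, had 11.2 and 12.2 scaled FPKM in shPTPRN3 against 8.46 and 10.4 in shNC. The groups did not overlap, but the gap between them was smaller than the difference between the shNC libraries. The log2 fold change was 0.29 (SE 0.31; limma, adjusted p = 0.738). The ratio of MYC to MNT was 1.58 and 1.14 in shPTPRN3 and 3.48 and 2.64 in shNC.

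MGA, a very large protein that pairs with MAX and scaffolds a Polycomb complex, PRC1.6, was the most uneven member. It had 1.94 and 2.72 scaled FPKM in shPTPRN3 and 1.46 and 4.85 in shNC, so both shPTPRN3 libraries lay between the shNC libraries. Its log2 fold change was -0.20, with a 95% interval of -1.27 to 0.87 (limma, adjusted p = 0.899), and it was 0.42 without shNC replicate 2 and -0.82 without shNC replicate 1. The longest annotated MGA transcript has 14439 bases. Over the 4756 tested genes whose longest transcript has at least 4000 bases, the median difference of shNC replicate 2 minus shNC replicate 1 was 0.38 on the log2 scale, against -0.93 for the 421 genes under 1000 bases. With the trend of level with transcript length removed within each library, the log2 fold change of MGA was -0.39 (SE 0.27; limma, adjusted p = 0.459).

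MLX, the partner of the glucose-responsive factors, matched MAX in level, with 34.6 and 30.2 scaled FPKM in shPTPRN3 and 35.6 and 29.6 in shNC. The groups overlapped and the log2 fold change was -0.01, with a 95% interval of -0.79 to 0.78 (limma, adjusted p = 0.997). It overlaps PSMC3IP on the other strand, which was listed at 0 in all 4 libraries.

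MLXIP, the glucose-responsive partner of MLX, had 8.77 and 13.6 scaled FPKM in shPTPRN3 and 6.61 and 8.42 in shNC. Replicate 2 was the higher library in each group, and the lower shPTPRN3 library was close to the higher shNC library. The mean was 11.2 ± 3.42 against 7.52 ± 1.28 (SD, n = 2 each), or 1.49-fold higher, with a log2 fold change of 0.50 and a 95% interval of -0.32 to 1.32 (limma, adjusted p = 0.574). Without shPTPRN3 replicate 2 the change was 0.22. The relative MLXIPL, known for carbohydrate response in liver, was at 0.750 and 0.557 scaled FPKM in shPTPRN3 and at 0.814 and 0.409 in shNC.

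**Figure D3:**
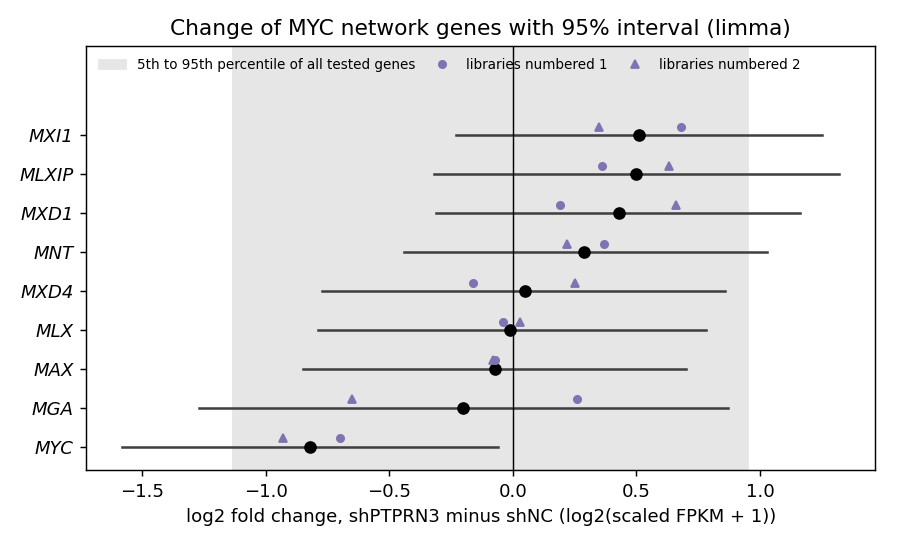
Change of each tested member (black point, log2 scale, shPTPRN3 minus shNC) with its 95% interval by limma (line) and the differences within same-numbered libraries (purple), over the span from the 5th to the 95th percentile of all tested genes (grey, -1.13 to 0.95). MYC at -0.82 is the only member whose interval leaves out 0.

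Ordered by mean level over the 4 libraries, MAX (32.6 scaled FPKM) and MLX (32.5) came first with overlapping ranges, followed by MYC (22.1), MNT (10.6), MXD4 (10.5), MLXIP (9.35), MXI1 (5.99), MGA (2.74) and MXD1 (2.03). FPKM are per length, but a trend with transcript length remained and differed between libraries. Between the shNC libraries (replicate 2 minus replicate 1) the median log2 difference was 0.38 for transcripts of at least 4000 bases and -0.93 under 1000. The order between genes of different length is therefore only approximate. Among neighbours in this order, the ranges over libraries overlapped for MAX and MLX, for MNT and MXD4, for MXD4 and MLXIP, for MLXIP and MXI1, for MXI1 and MGA, and for MGA and MXD1. The lowest MYC library (13.9) was above the highest MXD4 and MNT libraries (12.8 and 12.2) and near the highest MLXIP library (13.6).

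The makeup of the network by summed level differed most in the share of MYC. MYC held 13.7% and 11.4% of the members' summed scaled FPKM in the shPTPRN3 libraries, against 21.7% and 21.6% in the shNC libraries. The 6 antagonists together, with MXD3 entered at its listed 0, summed to 33.6 and 35.2 scaled FPKM in shPTPRN3 and to 28.3 and 30.4 in shNC. MYC was thus 0.527 and 0.396 of their sum in shPTPRN3 and 1.04 and 0.901 of it in shNC. These ratios are of mRNA levels, and protein was not measured. The ratios and shares also set genes of different transcript length side by side, with the limit given above for the order.

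**Figure D4:**
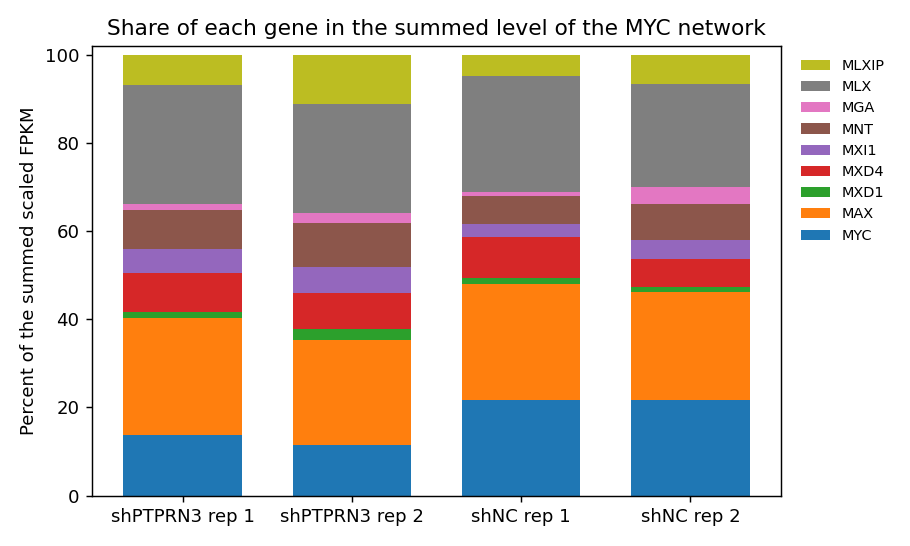
Share of each member in the summed scaled FPKM of the network, 1 stacked bar per library, with MXD3 left out because it was listed at 0. The MYC segment at the base is 11.4% to 13.7% of the bar in shPTPRN3 and 21.6% to 21.7% in shNC, while MAX stays between 24.0% and 26.5%.

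The 3 genes whose profile over the 4 libraries was nearest to that of MYC, among 7267 genes with a mean of at least 5 scaled FPKM, were ATIC, DDX54 and PRXL2B. Their root-mean-square differences from MYC, on centred log2 values, were 0.029, 0.029 and 0.034. ATIC, a purine synthesis enzyme, had 28.1 and 23.1 scaled FPKM in shPTPRN3 and 46.0 and 45 in shNC. DDX54, an RNA helicase, had 12.4 and 10.1 in shPTPRN3 and 22.1 and 20.3 in shNC. With 4 libraries many profiles are alike, and this likeness is a description.

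Genes that MYC is known to activate were mostly lower in shPTPRN3. The list was chosen with earlier results of these data known, so its shares are descriptions. Of 40 listed genes 38 were tested, their median log2 fold change was -0.77, and in 26 of them (68.4%) both shPTPRN3 libraries were below both shNC libraries, against 23.1% of all tested genes. In 1 of them, EIF4E, the cap-binding translation factor, the groups stood the other way (0.34). SLC7A5 (0.46) and BCAT1 (0.16) also had values above 0, with overlapping groups. By limma over all genes 1 fell and none rose, and 12 were lower at an unadjusted p under 0.05. Of all tested genes, 0.342% were called lower and 7.77% were lower at that unadjusted p. The one called, POLR1B, a subunit of RNA polymerase I, was listed at 0 in both shPTPRN3 libraries and at 3.91 and 4.0 scaled FPKM in shNC, and such a 0 can be a failed estimate. Between the replicate 1 libraries alone the median was -0.87, between the replicate 2 libraries -0.66, and without shNC replicate 1 it was -0.47.

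Single genes of that list show its parts. MCM4, a subunit of the replicative helicase, had 12.3 and 13.4 scaled FPKM in shPTPRN3 and 38.9 and 46.2 in shNC, with a log2 difference of -1.65 (limma, adjusted p = 0.0825). FBL, the nucleolar RNA methyltransferase fibrillarin, had 38.0 and 26.8 in shPTPRN3 and 107 and 70.1 in shNC, a change of -1.41. RCC1, the exchange factor of the RAN GTPase, had -1.32, and APEX1, a base excision repair nuclease, had -1.19. Genes of nucleotide and polyamine synthesis, CAD (-0.97), IMPDH2 (-1.03) and ODC1 (-0.65), had smaller values, and the glycolytic gene LDHA had -0.42. These further genes of the list were named after their values were seen.

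Genes that MYC is known to repress lay on the other side. Of 15 listed genes 11 were tested, with a median log2 fold change of 0.65, and 8 of them (72.7%) had both shPTPRN3 libraries above both shNC libraries, against 21.5% of all tested genes. None was called over all genes by limma, and 4 were higher at an unadjusted p under 0.05, against 5.67% of all tested genes. CDKN1A, the cyclin-dependent kinase inhibitor p21, had 609 and 918 scaled FPKM in shPTPRN3 and 142 and 89.2 in shNC (2.72; adjusted p = 0.0759). COL1A2, a collagen chain, had 323 and 369 in shPTPRN3 and 67.4 and 86.5 in shNC (2.16; adjusted p = 0.0785). CLU, a secreted chaperone, had 1.32 and NDRG1, a stress and differentiation gene, 0.94. NDRG2 stood the other way, at -0.58. CDKN1A is also a p53 target, and both lists hold genes that many other factors control. The activated list also holds replication genes such as MCM4. This repressed list, too, was chosen with earlier results of these data known.

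Cell-cycle genes differed in the same direction as MYC and by more. Of 10 listed genes 9 were tested, and all 9 had both shPTPRN3 libraries below both shNC libraries, against 23.1% of all tested genes. Their median log2 fold change was -3.10, and CDK1 and MKI67 fell by limma, where 0.342% of all tested genes were called lower. CDK1, the mitotic kinase, had 2.21 and 0.411 scaled FPKM in shPTPRN3 and 30.3 and 20.1 in shNC (-3.59; adjusted p = 0.0362). The share of cells in cycle was not measured, and its part in the MYC values was not tested.

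**Figure D5:**
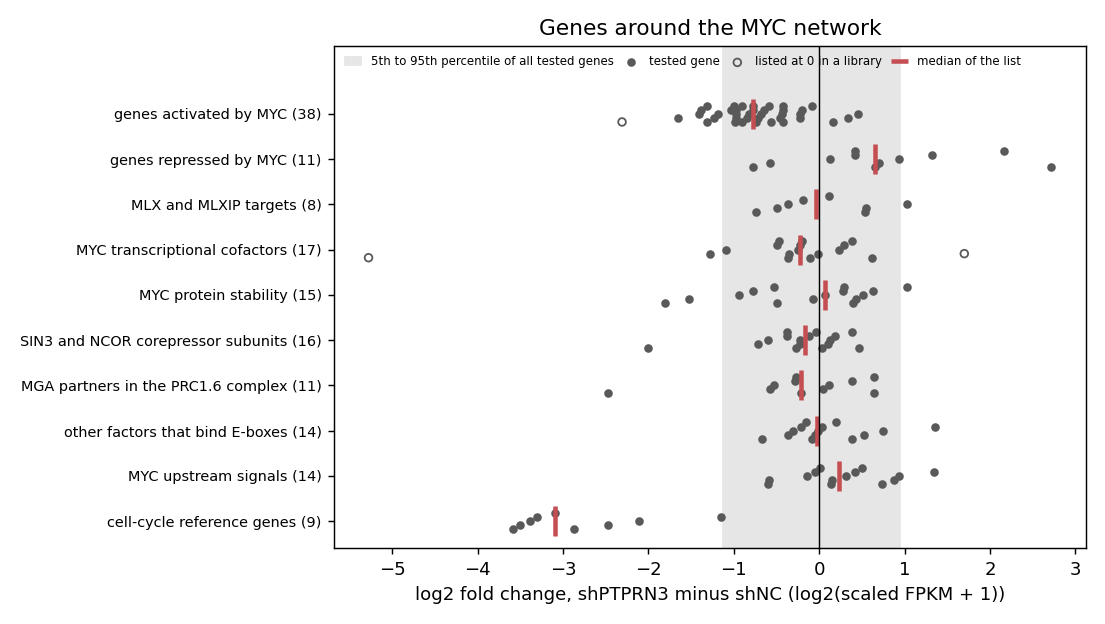
Log2 fold change (shPTPRN3 minus shNC) of each tested gene of 10 lists around the MYC network, with the number tested in brackets, open circles for genes listed at 0 in a library, a red bar at each list's median and grey for the 5th to the 95th percentile of all tested genes. The medians are -0.77 for genes activated by MYC, 0.65 for genes repressed by it and -3.10 for the cell-cycle genes, while the remaining lists have medians from -0.23 to 0.23.

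Targets of the MLX and MLXIP pair lay on both sides of 0. Over 8 tested genes the median was -0.04, with -0.25 without shNC replicate 1 and 0.24 without shNC replicate 2. None was called, and 2 (25%) were above and 2 (25%) below without overlap, against 21.5% and 23.1% of all tested genes. ARRDC4, an arrestin-like gene that the pair activates directly, had 9.66 and 12.3 scaled FPKM in shPTPRN3 and 4.74 and 4.90 in shNC, a log2 difference of 1.03 (limma, adjusted p = 0.213). TXNIP, the other classical target and a brake on glucose uptake, had 26.8 and 13.7 in shPTPRN3 and 27.3 and 22.6 in shNC, a change of -0.36 with overlapping groups. TKT, a pentose phosphate enzyme, had 0.55 and PFKFB3, a glycolytic regulator, -0.74.

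Cofactors that MYC recruits had a median log2 fold change of -0.23 over 17 tested genes, with none higher and 6 (35.3%) lower without overlap. Over all tested genes these shares were 21.5% higher and 23.1% lower. The median was -0.07 without shPTPRN3 replicate 1 and -0.14 without shNC replicate 2. RUVBL1, an ATPase of chromatin remodelling complexes, was called but listed at 0 in both shPTPRN3 libraries, against 44.2 and 32.6 scaled FPKM in shNC, so no fold is given. The acetyltransferase KAT5 was listed at 0 in shNC replicate 1 only and had 10.1 and 10.2 in shPTPRN3 and 10.8 in shNC replicate 2. ACTL6A, an actin-related subunit of remodelling complexes, had 7.86 and 5.35 in shPTPRN3 and 15.7 and 14.3 in shNC (-1.09; limma, adjusted p = 0.213). SMARCB1, a core subunit of the BAF complex, had -1.28.

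Corepressor subunits that serve the MXD proteins and MNT had a median of -0.17 over 16 tested genes, with none called. Without overlap 2 (12.5%) were above and 3 (18.8%) below, against 21.5% and 23.1% of all tested genes. That median depended on single libraries, at 0.03 without shPTPRN3 replicate 1, -0.37 without shPTPRN3 replicate 2 and -0.02 without shNC replicate 2. RBBP4, a histone-binding subunit shared with replication-coupled chromatin assembly, had 3.62 and 2.85 scaled FPKM in shPTPRN3 and 15.0 and 17.1 in shNC (-2.01; limma, adjusted p = 0.0594). SIN3B, a scaffold of the complex, had 18.2 and 17.2 in shPTPRN3 and 12.5 and 12.6 in shNC (0.47; adjusted p = 0.539). Among partners of MGA in PRC1.6, the median was -0.21 over 11 genes and none was called. Without overlap 3 (27.3%) were above and 5 (45.5%) below, against the same shares of all tested genes. The median was -0.09 without shNC replicate 2 and 0.12 over the genes with a mean of at least 5 scaled FPKM. TFDP1, the dimer partner of E2F factors, had 12.0 and 4.91 in shPTPRN3 and 51.8 and 43.4 in shNC (-2.47; adjusted p = 0.0733), while E2F6 and the reader protein L3MBTL2 each had 0.64.

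Regulators of MYC protein stability had a median of 0.07 over 15 tested genes, with 5 (33.3%) above and 6 (40%) below without overlap. The shares of all tested genes were 21.5% and 23.1%, and none of the list was called. Without shNC replicate 1 the median was -0.31, without shNC replicate 2 it was 0.02, and without shPTPRN3 replicate 2 it was -0.01. AURKA, a mitotic kinase that also stabilises MYC family proteins, had 13.5 and 13.8 scaled FPKM in shPTPRN3 and 56.5 and 44.4 in shNC (-1.81; limma, adjusted p = 0.0762). PPP2R5A, a phosphatase subunit that favours MYC breakdown, had 10.1 and 12.5 in shPTPRN3 and 6.04 and 7.93 in shNC (0.63; adjusted p = 0.443). SET, an inhibitor of that phosphatase, had -0.78.

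Across all tested genes with a promoter window, 1175 of 8963 (13.1%) held the E-box core in at least 1 window. Their median log2 fold change was -0.04, against 0.0 for genes without it. Both shPTPRN3 libraries lay below both shNC libraries for 26.4% of genes with the core and 22.6% of those without, and above them for 18% and 21.9%. Calls by limma made up 0.426% and 0.437%. These shares are descriptions with no test.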

How the data were processed

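RNA from U87 cells was made into 4 libraries with a kit that keeps strand (KAPA), per the labels. The authors deposited FPKM per gene with a confidence interval and a status, in 1 Cufflinks table per library of 33646 rows. The submitters' processing notes name FastQC 0.72, STAR 2.6.0b-1, Cufflinks 2.2.1.2 and hg38; the annotation and the strand setting of the quantification are not stated there. The tables hold no counts. Low values of single-exon genes fell on steps of whole fragments in only 23.4% to 38.3% of cases (log2 tolerance 0.004), so no count model was used, and depth was estimated by reading interval widths as counting error.

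Rows not marked OK in every library (651) were left out and the rest summed per symbol. Median-ratio scaling used the 9988 genes whose FPKM reached 1 in all 4 libraries. The test was limma (version 3.58.1, R version 4.3.3) for genes averaging 1 scaled FPKM or above, on log2 values after adding 1, with an eBayes trend, two-sided, Benjamini-Hochberg adjusted. Fold changes on this scale understate changes of low genes. There were 2 residual degrees of freedom and 4.94 from the prior. The fit was checked on simulated data. The members and lists were chosen with earlier results of these data known. Named genes were all members, PTPRN, each list's called genes and its 4 largest changes at a mean of at least 5 scaled FPKM, the 3 profiles nearest to MYC, and overlapping genes; markers and other genes were named after their values were seen. Positions are those of the tables (hg38, from 1), and strands and transcripts come from GENCODE 29. Python 3.11.15 and matplotlib 3.10.9 were used.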

Additional observations from a re-analysis of the deposited data

How the results depend on the processing

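The number of genes called depended on the settings. Against 48 (9 higher, 39 lower), limma called 31 (23 lower) on FPKM as deposited, 26 (19 lower) with eBayes without a trend, 23 (16 lower) with a pseudocount of 0.1, 8 (3 higher, 5 lower) at a mean of at least 5 scaled FPKM, and 0 with no filter on low values (0 higher and 0 lower, with 2163 genes at an unadjusted p under 0.05). It called 112 (30 higher, 82 lower) with the trend with transcript length removed, 160 (33 higher, 127 lower) with robust eBayes and 217 (42 higher, 175 lower) without genes listed at 0. Leaving out 1 library gave 60 to 197 calls, 10 to 36 higher and 42 to 161 lower; the 197 came without shPTPRN3 replicate 1, and the lone library of a group is then assumed to vary like the other group. No member was called in any of these fits.

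With the replicate number as a block 2163 genes were called (955 higher, 1208 lower), among them 1 member, MYC (-0.82, adjusted p = 0.0276), and PTPRN (-2.22). Deviations of same-numbered libraries from their group means correlated with r = 0.519 across genes, but no label says that a number marks a shared culture or day, and 2 pairs are too few to decide it. PTPRN also passed without genes listed at 0 (-2.22) and with robust eBayes (-2.22), and ran from -2.45 to -1.98 when 1 library was left out, passing without shPTPRN3 replicate 1 (-2.40).

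Small changes turned sign. MAX had 0.01 on TPM, and MLX 0.09 on TPM and 0.07 with the length trend removed; the cause was not tested. Without 1 library MAX ran from -0.18 to 0.05, MLX from -0.14 to 0.13, MXD4 from -0.26 to 0.35 and MGA from -0.82 to 0.42. MYC, MXI1, MXD1, MNT and MLXIP, whose groups did not overlap, kept their sign in every alternative fitted. For such genes leaving out 1 library can hardly turn the sign, and several fits share the same difference. The kept sign therefore largely restates the lack of overlap. MXI1 ran from 0.33 to 0.70, MXD1 from 0.21 to 0.65, MNT from 0.16 to 0.42 and MLXIP from 0.22 to 0.78. MXD1 and MGA were below the stricter minimum and have no value there. Among list medians, that of genes repressed by MYC was 0.42 with no filter, on TPM those of the corepressors and of the MGA partners were -0.09 and -0.12, and with the length trend removed those of the stability regulators and of the MLX and MLXIP targets were -0.03 and -0.15.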

Other observations

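A list of signalling genes, most of them known to act upstream of MYC, had a median log2 fold change of 0.23 over 14 tested genes. None was called by limma. There were 5 (35.7%) above and 2 (14.3%) below without overlap, against 21.5% and 23.1% of all tested genes. The median was 0.08 without shNC replicate 1 and 0.62 over the genes with a mean of at least 5 scaled FPKM. STAT3, a transcription factor of cytokine signalling, had 28.2 and 33.2 scaled FPKM in shPTPRN3 and 10.8 and 12.0 in shNC (1.35; limma, adjusted p = 0.125). CCND1, the G1 cyclin D1, is on this list but is not an upstream signal of MYC. It had 167 and 144 in shPTPRN3 and 83.8 and 83.1 in shNC (0.88, adjusted p = 0.371 by limma). That direction was opposite to that of the cell-cycle genes above. EGFR, a growth factor receptor, had 10.0 and 15.5 in shPTPRN3 and 4.22 and 8.58 in shNC.

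Other factors that bind E-boxes had a median of -0.03 over 14 tested genes, none called, with -0.34 without shNC replicate 1 and 0.29 without shNC replicate 2. ARNTL, a circadian clock factor, had 6.03 and 12.1 scaled FPKM in shPTPRN3 and 2.46 and 3.05 in shNC (1.36; limma, adjusted p = 0.194). SREBF2, which drives cholesterol synthesis genes, had 16.8 and 14.8 in shPTPRN3 and 6.35 and 12.5 in shNC (0.75). HIF1A had 50.5 and 54.5 in shPTPRN3 and 47.7 and 147 in shNC, so shNC replicate 2 alone set its lower value (-0.67).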
